A study of Mus musculus with 10 samples.

Results

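Potassium channel genes were defined as all protein-coding genes whose symbol starts with Kcn, together with Abcc8 and Abcc9, the genes of the sulfonylurea receptors that coat the ATP-sensitive channels. The rule found 96 genes among 56748 identifiers, and it used no measured value. The RNA was that of FACS-sorted beta cells, and the islets that gave them were from male mice between 6 and 8 weeks of age. All libraries of both groups share the NOD genotype, an inbred background prone to autoimmune diabetes without any treatment. In the LPS group (n = 5 libraries, numbered 6 to 10) whole islets had spent 48 hours with lipopolysaccharide at 50 ng/ml before dispersal and sorting. The untreated group (n = 5, numbered 1 to 5) had no such addition, and the labels give no culture time for it. The labels call the libraries independent samples and name no animals, so p-values measure the spread between these libraries.

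Between 18465188 and 27379892 counts per library were assigned to genes. All 8 beta cell markers were present, with a summed level of 101371 to 133422 CPM (the count of a gene relative to its library total after TMM scaling) in LPS and 117445 to 136193 CPM in untreated libraries. Slc2a2 and Ucn3, which are among these 8, fell with LPS, and the other 6 did not pass the test. Transcripts of other islet cells were present as well: the 5 alpha cell markers summed to 4122 to 8899 CPM in LPS and 4966 to 14237 CPM in untreated libraries, and the 2 pancreatic polypeptide cell markers to 952 to 2150 CPM in LPS and 1581 to 2984 CPM in untreated libraries. Of this pair Ppy was itself called lower in LPS (log2 fold change -0.99, edgeR adjusted p = 0.0473). The 6 endothelial markers summed to 1.32 to 4.19 CPM in LPS and 1.16 to 23.3 CPM in untreated libraries, and 1 of them, Kdr, was called lower (-3.12, edgeR adjusted p = 0.0473). Of the 6 lymphocyte markers, Cd3e, Cd3g, Ms4a1 and Ptprc had 0 counts in all 10 libraries. In bulk samples such as these, fewer cells of a type and less RNA per cell cannot be told apart.

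Potassium channels set the resting potential of a beta cell and end its action potentials. At low glucose, open ATP-sensitive (KATP) channels hold the membrane near the potassium equilibrium. As metabolism raises ATP they close, the membrane depolarises, calcium enters and insulin granules are released. Voltage-gated and calcium-activated channels then repolarise the membrane, while 2-pore domain channels carry leak currents and G protein-gated inward rectifiers open when receptors for inhibitory transmitters are engaged.

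In these cells 45 of the 96 genes reached a mean of 1 CPM over the 10 libraries, the threshold used here for expression. Another 7 had enough counts to be tested although their mean was lower, 35 had some counts but were not tested, and 9 had 0 counts in every library. Those 9 were Kcna10, Kcne1, Kcne1l, Kcne2, Kcnj16, Kcnk15, Kcnk18, Kcns1 and Kcns2. A count of 0 over all libraries allows a level of up to 0.0128 CPM (3 counts over the 10 libraries, counting error only). Just inside the threshold lay Kcnk13, Kcnq3 and Abcc9 at means of 1.12, 1.09 and 1.07 CPM, and just outside it Kcnh7, Kcnc4 and Kcnh5 at 0.861, 0.771 and 0.633 CPM.

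**Figure D1:**
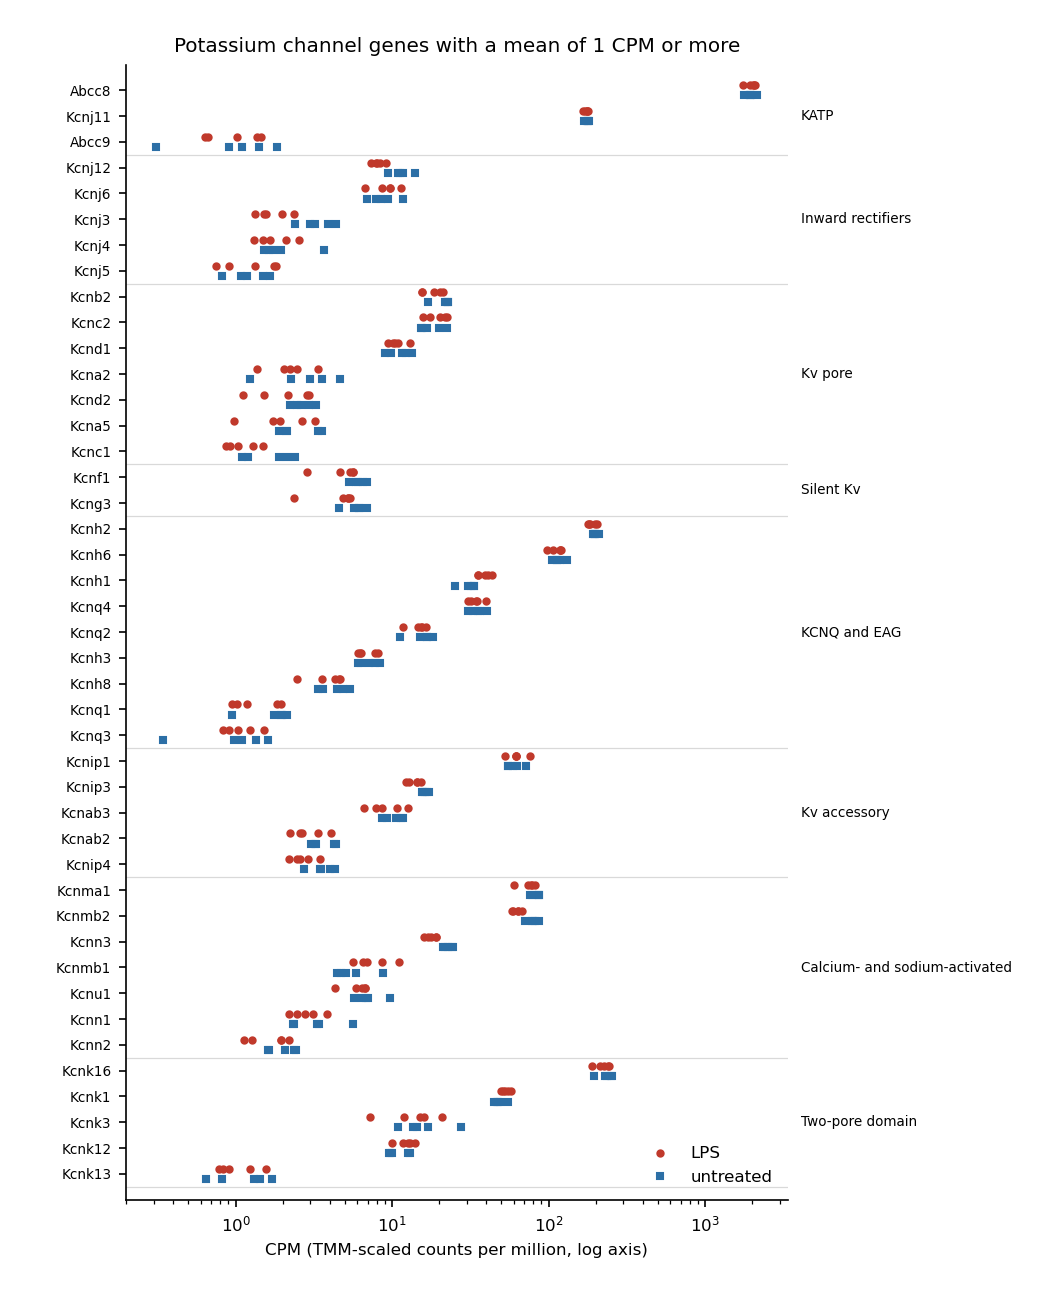
Level of 43 expressed potassium channel genes in each library, in CPM on a log axis, ordered by subfamily (circles, LPS; squares, untreated; n = 5 each). The levels span from about 1 CPM to the 1961 CPM of Abcc8, and the libraries of both groups overlap for 37 of the 43 genes.

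Across all tested members, 4 of 52 were called at an adjusted p under 0.05 (edgeR quasi-likelihood test, adjusted over all 15942 genes tested), which is 7.69%, and all 4 were lower in LPS. Among all tested genes 3.77% were called, 0.928% as lower and 2.84% as higher. The 148 lower calls behind that share became 75, 77, 89 and 76 without untreated 2, untreated 3, untreated 4 and LPS 9, and 437 with 1 surrogate variable. In the fits with a marker or abundant-gene covariate, described below, they were 12 to 78. Of the 52 tested members 41 (78.8%) had a log2 fold change below 0 and 11 above, with a median of -0.16. Over all tested genes 52.1% lay below 0 and the median was -0.01. At an unadjusted p under 0.05 stood 8 of the 52, or 15.4%, which is about the 15.3% of all genes. The called members were Kcnmb2, Kcnn3, Kcnj12 and Kcnj3, a subunit of the large-conductance calcium-activated channel, a small-conductance calcium-activated channel and a pair of inward rectifiers. No member was called higher in this test, while 3 genes with positive log2 fold changes came closest: Kcnh1 (0.33), Kcnmb1 (0.42) and Kcnk1 (0.13), with adjusted p of 0.0604, 0.393 and 0.419. DESeq2 called Kcnh1 as well, while none of the 10 edgeR fits that left out 1 library did.

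**Figure D2:**
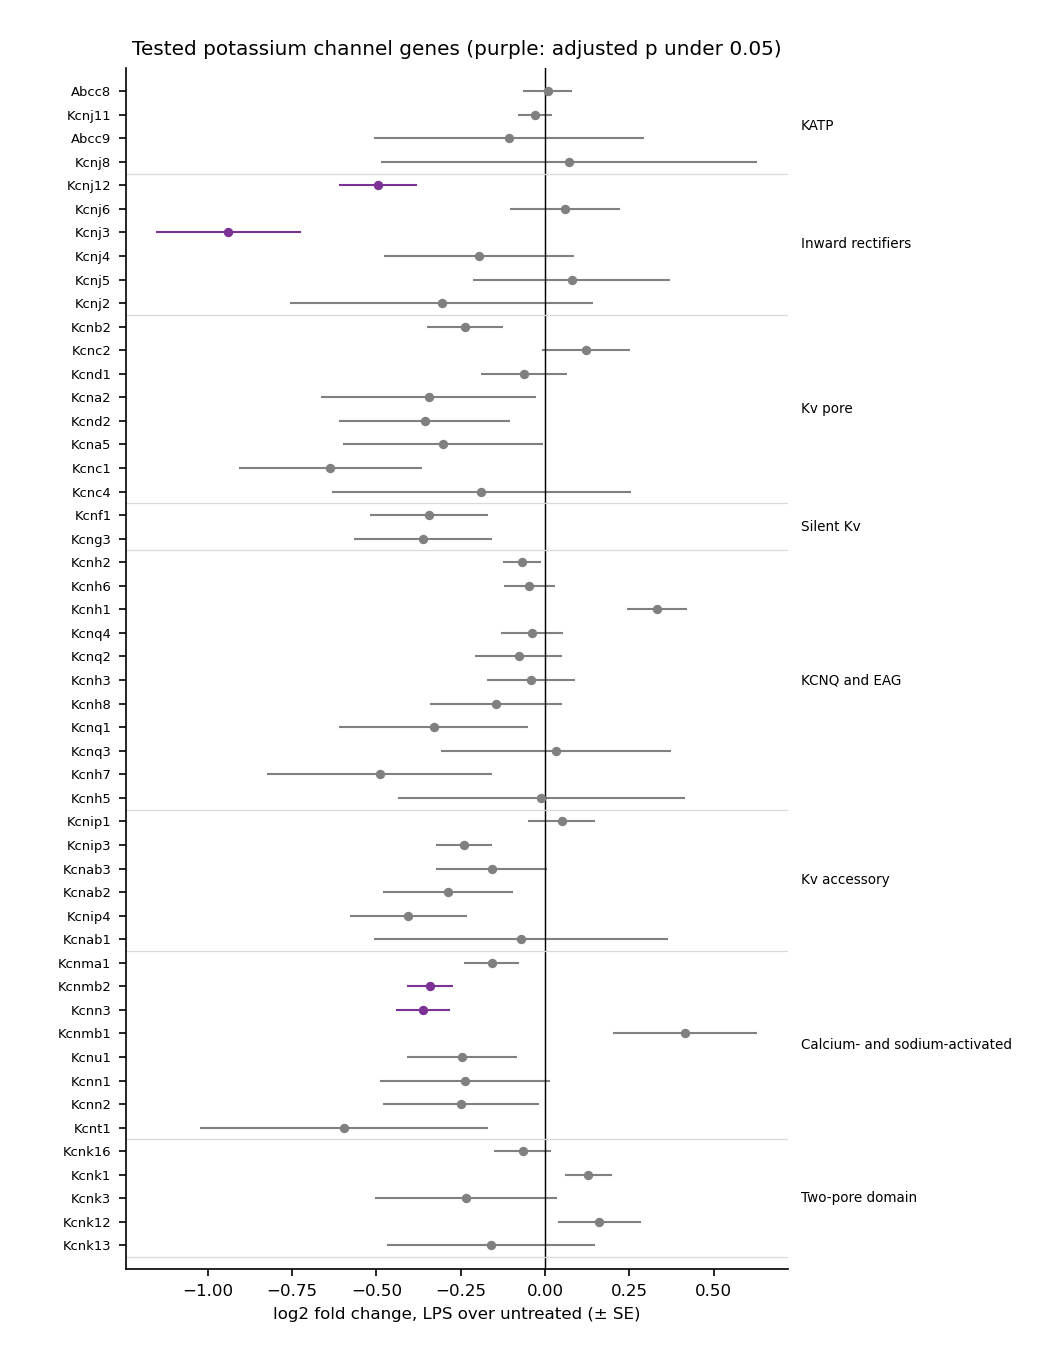
Log2 fold change of LPS over untreated with its standard error for 50 tested members, ordered by subfamily; called members are purple. The 4 called genes lie between -0.94 and -0.34, and the 4 KATP genes lie around 0.

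The KATP channel is an octamer of 4 pore subunits and 4 sulfonylurea receptors. In beta cells the pore is Kir6.2, encoded by Kcnj11, and the receptor is SUR1, encoded by Abcc8; the 2 genes are neighbours on chromosome 7. Abcc8 (ENSMUSG00000040136) was by far the most abundant member. It had 1744, 1927, 2090, 2052 and 2022 CPM in the 5 LPS libraries, and 1764, 1937, 1964, 1952 and 2163 CPM in the 5 untreated libraries. The groups overlapped over nearly their whole range, and the log2 fold change was 0.01 ± 0.07 (SE; edgeR adjusted p = 0.976). Kcnj11 (ENSMUSG00000096146) had 167, 170, 179, 177 and 177 CPM in LPS, and 170, 180, 182, 180 and 177 CPM in untreated libraries. It was the steadiest member at 10 CPM or more, with a mean coefficient of variation within groups of 2.85%, and its log2 fold change was -0.03 ± 0.05 (SE; edgeR adjusted p = 0.853). No potassium channel subunit other than Abcc8 and Kcnk16 exceeded it per length: Abcc8 stood at 242, Kcnk16 at 95.9 and Kcnj11 at 47.9 CPM per kilobase of gene model.

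The ratio of Kcnj11 to Abcc8 counts, which does not depend on library scaling, had a mean log2 value of -3.49 ± 0.06 in LPS and -3.46 ± 0.09 in untreated libraries (SD, n = 5 each). The difference of -0.04 did not exceed the variation among libraries (two-sided exact permutation test, p = 0.444; 0.532 adjusted over 3 ratios). The KATP genes of other tissues, Kcnj8 for the pore subunit Kir6.1 and Abcc9 for SUR2, are known from vascular smooth muscle and pericytes. Kcnj8 averaged 0.406 ± 0.252 CPM in LPS and 0.380 ± 0.256 CPM in untreated libraries, and Abcc9 1.03 ± 0.38 CPM in LPS and 1.12 ± 0.57 CPM in untreated libraries (SD, n = 5). Neither passed, with log2 fold changes of 0.07 ± 0.56 and -0.11 ± 0.40 (SE) that changed sign in some fits. Abcc9 shares exon bases with 5330439B14Rik on the opposite strand, which was called higher (1.67 CPM in LPS and 0.620 CPM in untreated libraries; log2 fold change 1.41, edgeR adjusted p = 0.0373), and without a stated strand setting their reads cannot be told apart. The 7 mesenchymal and mural markers, of cells in which that pair is known to act, summed to 4.29 to 29.1 CPM in LPS and 6.60 to 95.8 CPM in untreated libraries.

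Of 13 other inward rectifier genes 6 were tested and 5 expressed, and 2 of them fell. Kcnj3 (ENSMUSG00000026824, chromosome 2) encodes GIRK1, a subunit of G protein-gated channels that is known to need a partner such as GIRK2 to reach the membrane. Kcnj3 had 1.51, 1.99, 2.37, 1.34 and 1.57 CPM in LPS libraries, against 3.88, 4.41, 3.21, 2.41 and 2.99 CPM in untreated libraries. Every LPS library lay below every untreated one, but by a narrow margin between 2.37 and 2.41 CPM. The log2 fold change was -0.94 ± 0.21 (SE; edgeR adjusted p = 0.0261), which is the largest among the 52 tested members, and it rests on 25 to 55 counts per LPS library and 56 to 109 per untreated library. In the GRCm38 annotation an exon of Kcnj3 overlaps a gene on the opposite strand, Gm26794. No counts under that name were found here, and without a stated strand setting reads of that stretch cannot be told apart.

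The partner gene Kcnj6, which encodes GIRK2, did not pass. It had 8.63, 11.5, 9.73, 9.77 and 6.75 CPM in LPS and 9.36, 11.8, 8.48, 7.87 and 6.89 CPM in untreated libraries, which is 0.06 ± 0.16 on the log2 scale (SE; edgeR adjusted p = 0.920). The log2 ratio of Kcnj3 to Kcnj6 counts was -2.49, -2.52, -2.02, -2.84 and -2.09 in LPS, against -1.26, -1.42, -1.40, -1.70 and -1.20 in untreated libraries. The groups did not overlap, and the means of -2.39 ± 0.34 in LPS and -1.40 ± 0.19 in untreated libraries (SD, n = 5) differed by -0.997 (two-sided exact permutation test, p = 0.00794, the smallest that 5 against 5 libraries can give; 0.0238 adjusted over 3 ratios). The fall of Kcnj3 was known when this ratio was chosen. Kcnj5, which encodes GIRK4, stood at 1.31 ± 0.48 CPM in LPS and 1.25 ± 0.33 CPM in untreated libraries (SD, n = 5; log2 fold change 0.08).

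**Figure D3:**
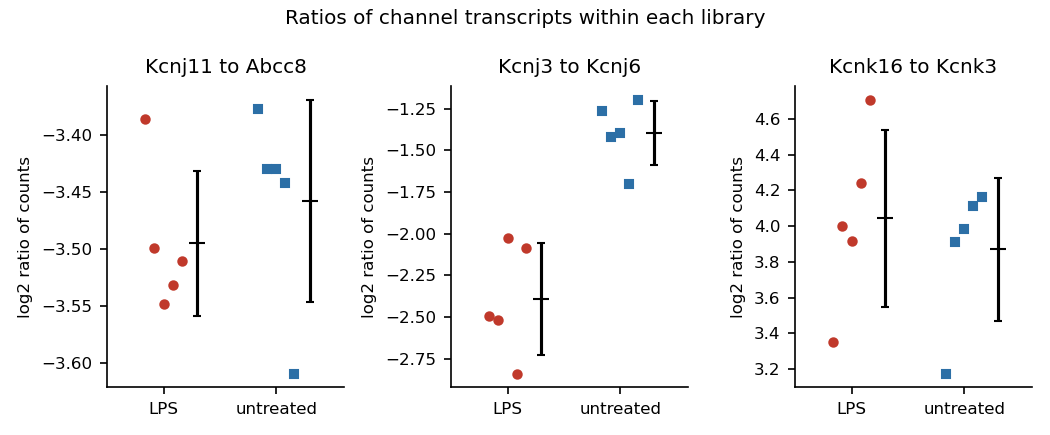
Log2 ratio of counts between pairs of channel genes within each library (circles, LPS; squares, untreated; bar and whiskers, mean ± SD, n = 5). The groups are apart for Kcnj3 to Kcnj6 and overlap for Kcnj11 to Abcc8 and for Kcnk16 to Kcnk3.

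Kcnj12 (ENSMUSG00000042529, chromosome 11) encodes Kir2.2, a strong inward rectifier. It had 7.85, 7.33, 9.21, 8.37 and 8.03 CPM in LPS libraries, against 11.0, 11.2, 9.41, 11.7 and 14.1 CPM in untreated libraries. The groups did not overlap, and the log2 fold change was -0.49 ± 0.12 (SE; edgeR adjusted p = 0.0303). Its relatives of the same branch, Kcnj4 (-0.20) and Kcnj2 (-0.31), were lower in level and did not pass. Kcnj4 averaged 1.83 CPM in LPS and 2.10 CPM in untreated libraries, and Kcnj2 0.473 CPM in LPS and 0.576 CPM in untreated libraries. Of the remaining 7 genes of this group, Kcnj1, Kcnj9, Kcnj10, Kcnj13, Kcnj14 and Kcnj15 had means of 0.0244 to 0.112 CPM and were not tested, and Kcnj16 had 0 counts.

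Among 12 genes named Kcnma, Kcnmb, Kcnn, Kcnt or Kcnu, 8 were tested and 7 expressed, and Kcnmb2 and Kcnn3 fell. They were grouped by name under calcium- and sodium-activated channels, whatever the gating of each. Kcnma1 encodes the pore of the large-conductance (BK) channel, which opens with calcium and depolarisation. It averaged 74.6 ± 8.5 CPM in LPS and 83.2 ± 5.2 CPM in untreated libraries (SD, n = 5) and did not pass (log2 fold change -0.16 ± 0.08 SE, edgeR adjusted p = 0.394). Kcnmb2 (ENSMUSG00000037610, chromosome 3) encodes a beta subunit of this channel, whose N terminus is known to inactivate the pore. Kcnmb2 had 68.1, 64.2, 63.9, 59.2 and 58.5 CPM in LPS libraries, against 81.9, 79.3, 78.8, 87.0 and 70.7 CPM in untreated libraries. The highest LPS library lay below the lowest untreated one, and the log2 fold change was -0.34 ± 0.07 (SE; edgeR adjusted p = 0.0117). The other beta subunit above the threshold, Kcnmb1, went the opposite way without passing, at 7.74 ± 2.14 CPM in LPS and 5.78 ± 1.72 CPM in untreated libraries (SD, n = 5; log2 fold change 0.42).

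Kcnn3 (ENSMUSG00000000794, also on chromosome 3) encodes SK3, a small-conductance channel gated by calcium through calmodulin. It had 17.8, 19.1, 19.1, 17.0 and 15.9 CPM in LPS libraries, against 22.9, 24.4, 24.1, 21.0 and 21.8 CPM in untreated libraries. The groups did not overlap, and the log2 fold change was -0.36 ± 0.08 (SE; edgeR adjusted p = 0.0198). The related genes Kcnn1 and Kcnn2 were lower in level and did not pass, with log2 fold changes of -0.24 ± 0.25 and -0.25 ± 0.23 (SE). Kcnt1, a sodium-activated channel gene, had one of the 3 largest changes that were not called (-0.60 ± 0.43 SE), at 0.408 CPM in LPS and 0.608 CPM in untreated libraries. Kcnu1, known as a channel of sperm and named after its value was seen, was present at 6.02 ± 1.00 CPM in LPS and 7.15 ± 1.52 CPM in untreated libraries (SD, n = 5; log2 fold change -0.24, edgeR adjusted p = 0.539). As a subfamily, the summed level was 153 to 186 CPM in LPS and 192 to 211 CPM in untreated libraries, with Kcnma1 and Kcnmb2 making up most of it. The sum includes Kcnmb2 and Kcnn3, which were called lower, so it is not a result separate from theirs.

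**Figure D4:**
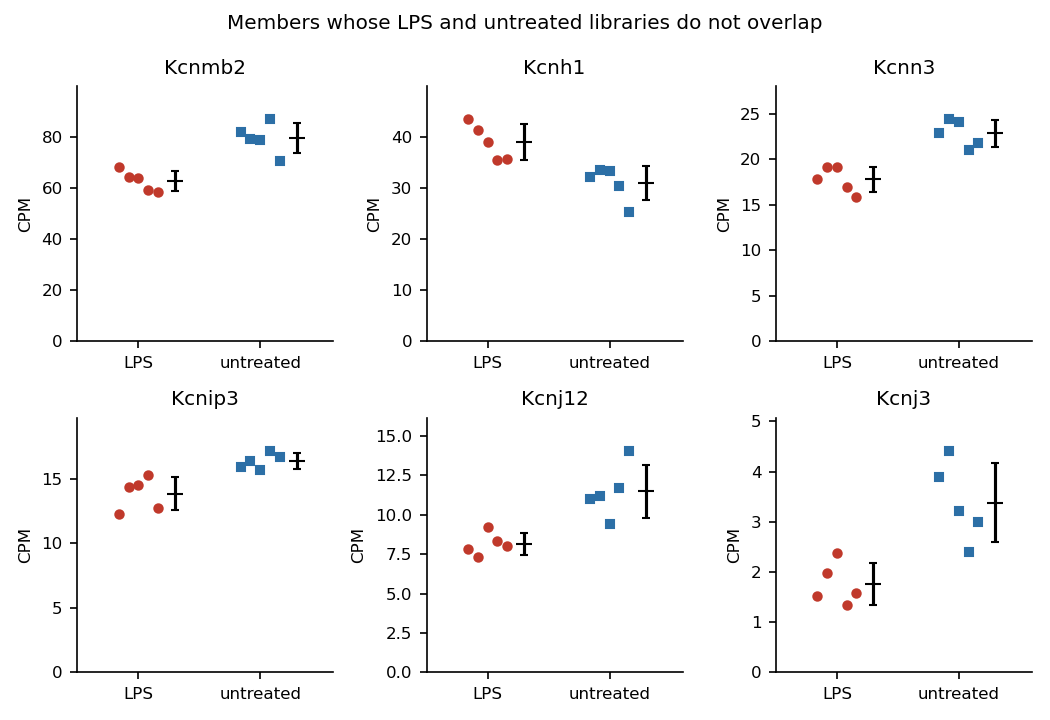
Level in CPM in each library for the 6 expressed members whose groups do not overlap (circles, LPS; squares, untreated; bar and whiskers, mean ± SD, n = 5). Kcnh1 is higher in every LPS library and the other 5 genes are lower.

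The sequences upstream of the 4 genes that fell are shown because these members moved in the same direction. Each run is the 250 bases before the start of the gene as listed by RefSeq on GRCm38.p6, 5′ to 3′ on the strand of the gene, which is the plus strand for all 4. The windows are chr3:31902453-31902702 for Kcnmb2, chr3:89519914-89520163 for Kcnn3, chr11:61065554-61065803 for Kcnj12 and chr2:55435720-55435969 for Kcnj3. Capitals mark a match to 1 of 5 motifs of stimulus-responsive factors, searched on both strands.
Kcnmb2: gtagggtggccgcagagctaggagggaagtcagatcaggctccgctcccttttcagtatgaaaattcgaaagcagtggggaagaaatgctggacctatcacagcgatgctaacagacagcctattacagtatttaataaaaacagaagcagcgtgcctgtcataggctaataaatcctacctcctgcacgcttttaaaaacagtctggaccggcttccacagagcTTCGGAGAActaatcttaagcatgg
Kcnn3: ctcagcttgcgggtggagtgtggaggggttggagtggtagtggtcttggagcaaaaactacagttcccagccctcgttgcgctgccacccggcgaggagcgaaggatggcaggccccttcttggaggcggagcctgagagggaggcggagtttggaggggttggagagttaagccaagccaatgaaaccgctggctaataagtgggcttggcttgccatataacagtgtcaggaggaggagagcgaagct
Kcnj12: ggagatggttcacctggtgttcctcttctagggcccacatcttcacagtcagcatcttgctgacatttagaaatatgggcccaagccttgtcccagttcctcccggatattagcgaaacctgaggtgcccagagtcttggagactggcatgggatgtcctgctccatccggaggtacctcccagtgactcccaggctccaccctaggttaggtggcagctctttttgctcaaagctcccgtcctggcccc
Kcnj3: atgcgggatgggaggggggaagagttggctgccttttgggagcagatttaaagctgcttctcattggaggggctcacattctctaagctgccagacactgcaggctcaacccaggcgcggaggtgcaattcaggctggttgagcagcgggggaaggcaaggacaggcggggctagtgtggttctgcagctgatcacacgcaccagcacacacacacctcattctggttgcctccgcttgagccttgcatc

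The motifs were the interferon-stimulated response element core, the gamma-activated sequence TTCNNNGAA, the AP-1 site TGANTCA, the cyclic AMP response element TGACGTCA and the NF-kB consensus, and they could overlap. A gamma-activated sequence in Kcnmb2, from 25 to 17 bases before the start, was the 1 match in the 4 windows. Windows of all 27025 genes with a listed start held this motif in 7.18%, the interferon element in 3.04%, the AP-1 site in 6.87%, the cyclic AMP element in 1.62% and the NF-kB consensus in 7.01%. Of the 96 channel genes 70 had a listed window, and 8.57% of these held the gamma-activated sequence, 2.86% the interferon element, 4.29% the AP-1 site and 8.57% the NF-kB consensus. The G and C content was 47.2% for Kcnmb2, 58.8% for Kcnn3, 56.0% for Kcnj12 and 58.4% for Kcnj3, beside a median of 52.0% over all genes. A match describes these letters only, and the start used in beta cells is not known from gene counts.

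Voltage-gated pore genes of the Kcna, Kcnb, Kcnc and Kcnd families carry the delayed rectifier and transient currents. Of these 17 genes 10 were tested, 9 were expressed and none was called. Of the 10 log2 fold changes 9 were below 0, where 52.1% of those of all tested genes were. Only 1 of the 10 genes had an unadjusted edgeR p under 0.05. Kcnb2, for Kv2.2, averaged 18.2 ± 2.6 CPM in LPS and 21.5 ± 2.5 CPM in untreated libraries (-0.24 ± 0.11 SE, edgeR adjusted p = 0.343). Kcnc1, for Kv3.1, had the largest change of the tested members that were not called, at 1.13 ± 0.27 CPM in LPS and 1.75 ± 0.57 CPM in untreated libraries (SD, n = 5; -0.64 ± 0.27 SE, edgeR adjusted p = 0.278). The silent subunits, which form no channel alone but join Kv2 pores, were represented by 2 expressed genes of 10. Kcnf1 averaged 4.84 ± 1.19 CPM in LPS and 6.14 ± 0.60 CPM in untreated libraries, and Kcng3 4.62 ± 1.27 CPM in LPS and 5.92 ± 0.86 CPM in untreated libraries, with log2 fold changes of -0.34 and -0.36 that did not pass.

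Among the KCNQ and EAG families, 11 of 13 genes were tested, 9 were expressed and none was called. Kcnh2 and Kcnh6 encode ERG channels, which open on repolarisation, and were the most abundant voltage-gated genes per length, at 40.0 and 32.3 CPM per kilobase. Kcnh2 averaged 189 ± 11 CPM in LPS and 198 ± 7.3 CPM in untreated libraries, and Kcnh6 113 ± 9.6 CPM in LPS and 116 ± 9.5 CPM in untreated libraries (SD, n = 5), with log2 fold changes of -0.07 and -0.05. Kcnh1, for the ether-a-go-go channel EAG1, had the larger of the 2 positive log2 fold changes in this subfamily, the other being that of Kcnq3 (0.03). It had 43.5, 41.3, 39.1, 35.4 and 35.7 CPM in LPS libraries, against 32.2, 33.5, 33.4, 30.4 and 25.3 CPM in untreated libraries. Every LPS library lay above every untreated one, but the gene did not pass in edgeR (log2 fold change 0.33 ± 0.09 SE, adjusted p = 0.0604). DESeq2 called it (adjusted p = 0.0274), as did edgeR with 1 surrogate variable (0.00516) or with the mean of the alpha and pancreatic polypeptide markers as a covariate (0.0290), a setting added after the data were seen. These were 3 of 11 other settings. None of the 10 fits that left out 1 library called it (edgeR adjusted p of 0.05597 to 0.1505). With the endothelial marker mean as covariate the edgeR adjusted p was 0.424, and with the abundant gene described below it was 0.587. Kcnh7 was among the largest changes that were not called (-0.49 ± 0.33 SE).

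Accessory genes of voltage-gated channels comprised 13 members, of which 6 were tested, 5 were expressed and none was called. Kcnip1 and Kcnip3 encode calcium-binding partners of Kv4 pores, the second of which is also known as the transcriptional repressor DREAM. Kcnip1 averaged 62.8 ± 8.3 CPM in LPS and 60.7 ± 7.0 CPM in untreated libraries (SD, n = 5; log2 fold change 0.05). Kcnip3 had 12.3, 14.3, 14.5, 15.3 and 12.7 CPM in LPS, against 15.9, 16.3, 15.7, 17.2 and 16.7 CPM in untreated libraries. Its groups did not overlap, yet it did not pass (-0.24 ± 0.08 SE, edgeR adjusted p = 0.155). Kcnab3, a cytosolic beta subunit, averaged 9.32 ± 2.39 CPM in LPS and 10.4 ± 1.4 CPM in untreated libraries (-0.16). In all, 6 of the 45 expressed members (13.3%) had groups that did not overlap, 5 of them lower in LPS (11.1%), where 6.23% of all tested genes with a mean of 1 CPM or more did so, 2.06% lower and 4.18% higher. Over tested genes of any level the share was 5.71%.

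The 2-pore domain genes make background channels. Of these 14 genes 5 were tested and expressed, and none was called. Kcnk16 encodes TALK-1, a leak channel known for its restriction to islets, and was the second most abundant member. It had 214, 242, 241, 226 and 191 CPM in LPS and 249, 255, 229, 237 and 196 CPM in untreated libraries, and its log2 fold change was -0.07 ± 0.08 (SE; edgeR adjusted p = 0.790). Kcnk1, for TWIK-1, averaged 53.4 ± 3.0 CPM in LPS and 48.8 ± 4.1 CPM in untreated libraries (SD, n = 5; 0.13 ± 0.07 SE). Kcnk3, for the acid-sensitive channel TASK-1, was the most variable of the 21 members at 10 CPM or more, with a mean coefficient of variation within groups of 37.1% against a median of 9.68%. It had 21.0, 15.1, 15.9, 11.9 and 7.28 CPM in LPS and 27.6, 16.9, 14.5, 13.7 and 10.9 CPM in untreated libraries. The log2 ratio of Kcnk16 to Kcnk3 counts averaged 4.04 ± 0.49 in LPS and 3.87 ± 0.40 in untreated libraries, a difference of 0.17 that did not exceed that variation (two-sided exact permutation test, p = 0.532; 0.532 adjusted over 3 ratios). It was 0.0003 without untreated 1, 0.0083 without LPS 10 and 0.348 without LPS 6.

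Per length of gene model, the KATP genes made up 48.4 ± 1.6% of the summed level of all 96 genes in LPS and 47.0 ± 2.0% in untreated libraries, and Abcc8 alone 40.4 ± 1.5% in LPS and 39.2 ± 2.0% in untreated libraries (SD, n = 5). The 2-pore domain genes followed with 21.3 ± 1.5% in LPS and 21.2 ± 2.3% in untreated libraries, and the KCNQ and EAG genes with 14.7 ± 0.4% in LPS and 14.7 ± 0.5% in untreated libraries. The shares of these larger subfamilies were close in both groups. The subfamilies that hold the called genes were small, and their mean shares were lower in LPS. Calcium- and sodium-activated genes made up 5.12 ± 0.46% in LPS and 6.01 ± 0.36% in untreated libraries, and inward rectifiers other than KATP genes 0.971 ± 0.072% in LPS and 1.21 ± 0.07% in untreated libraries. The length used is that of all annotated exons of a gene joined, on the older build GRCm38.

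The 4 calls differed in how far they rested on single libraries. Kcnmb2 was called in all 10 fits that left out 1 library, Kcnn3 in 7, Kcnj3 in 4 and Kcnj12 in 3, with edgeR adjusted p of at most 0.0420, 0.0677, 0.0827 and 0.0806. The direction was the same in each of these fits. Without untreated 2 or LPS 9 only Kcnmb2 was called, and without LPS 6 or LPS 10 only Kcnmb2 and Kcnn3 were. Without untreated 3 the calls were those of Kcnmb2 and Kcnj12.

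None of the 4 was called when the mean of the endothelial markers entered the fit, nor with the level of ENSMUSG00000119584, an abundant gene with no symbol in the annotation used here. The loss was not particular to the channel genes. Over all tested genes, the 148 lower calls became 12 with the endothelial mean and 18 with ENSMUSG00000119584. With the alpha and pancreatic polypeptide marker mean they became 78. With the endothelial mean, edgeR adjusted p were 0.135 for Kcnmb2, 0.252 for Kcnn3, 0.301 for Kcnj12 and 0.149 for Kcnj3. The log2 fold changes with that covariate were -0.34, -0.33, -0.47 and -0.99, close to those without it, while their standard errors were larger. With ENSMUSG00000119584 they were -0.27 ± 0.11 for Kcnmb2, -0.45 ± 0.12 for Kcnn3, -0.48 ± 0.19 for Kcnj12 and -1.16 ± 0.34 for Kcnj3 (SE), with edgeR adjusted p of 0.450, 0.149, 0.465 and 0.195. With the alpha and pancreatic polypeptide marker mean, Kcnj12 (-0.57) was called lower and Kcnh1 (0.46) higher, and the log2 fold changes of Kcnj3 (-0.68), Kcnn3 (-0.26) and Kcnmb2 (-0.28) were smaller than without it and did not pass. The covariates moved with the groups to a degree: apart from untreated 1, every untreated library had more endothelial marker counts than any LPS library, and with untreated 5 and LPS 8 set aside the alpha and pancreatic polypeptide mean was higher in every untreated library. The log2 level of ENSMUSG00000119584 was 11.1 to 12.1 in LPS and 11.8 to 13.2 in untreated libraries. Their part in the calls was not tested beyond these fits.

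**Figure D5:**
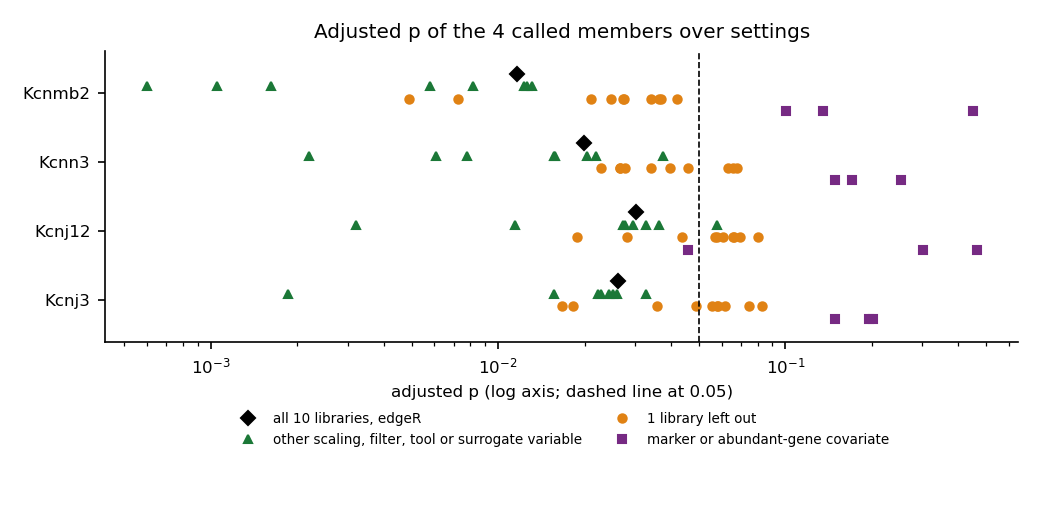
Adjusted p of the 4 called members on a log axis for all 10 libraries in edgeR (diamonds), other scalings, filters, tools or a surrogate variable (triangles), 1 library left out (circles) and a marker or abundant-gene covariate (squares); the dashed line is at 0.05. All circles of Kcnmb2 lie left of the line, and 11 of the 12 squares lie right of it.

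Genes that act with potassium channels but carry other names were counted from 3 lists. The lists were chosen with earlier results of these data known. Their counts are therefore no independent comparison with the shares over all genes. Of 19 tested channel partners 3 fell and none rose. Dpp10, an accessory subunit of Kv4 channels, stood at 7.19 ± 1.41 CPM in LPS and 13.3 ± 2.1 CPM in untreated libraries (SD, n = 5; log2 fold change -0.88, edgeR adjusted p = 0.00419). Akap6, a kinase anchor, stood at 1.83 ± 0.33 CPM in LPS and 3.49 ± 0.61 CPM in untreated libraries (-0.93, edgeR adjusted p = 0.0118) and Atp1b2, a sodium pump subunit, at 11.4 ± 2.0 CPM in LPS and 16.5 ± 2.6 CPM in untreated libraries (-0.54, edgeR adjusted p = 0.0450). The list's median log2 fold change was -0.14, where that of all tested genes was -0.01, and the shares called over all genes were 0.928% lower and 2.84% higher.

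Of 21 tested genes of receptors and G proteins that act on GIRK channels, 2 rose and none fell, with a median of 0.02, beside the same shares of 2.84% higher and 0.928% lower over all genes. Gabbr2, a chain of the GABA-B receptor, stood at 267 ± 22 CPM in LPS and 184 ± 29 CPM in untreated libraries (SD, n = 5; log2 fold change 0.54, edgeR adjusted p = 0.0109). Rgs4, which speeds the switching-off of G protein signals, stood at 834 ± 100 CPM in LPS and 416 ± 73 CPM in untreated libraries (1.01, edgeR adjusted p = 3.23e-04). The most abundant genes of the list, Gnai2 and Gnao1 for G protein alpha subunits, did not pass (0.02 and -0.07). Of 26 genes of stimulus-secretion coupling, Slc2a2, Trpm5 and Glp1r fell, none rose, and the median was -0.10, again beside 0.928% lower and 2.84% higher over all genes. Adra2a, the adrenergic receptor gene that couples to these channels, was higher in every LPS library (177 ± 26 CPM against 138 ± 12 CPM in untreated; SD, n = 5) without passing (0.36, edgeR adjusted p = 0.0555), and is named after its value was seen.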

How the data were processed

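RNA-seq libraries of sorted beta cells (5 LPS, 5 untreated) were analysed from the authors' deposited table of raw counts per gene for each library. Per the submitters' processing notes the tools were FastQC, Trimmomatic, STAR, SAMtools, HTSeq and DESeq2 with GRCm39; the sources used here give no versions, strand setting or annotation release. Reads naming no gene (15.4% to 20.2% of each table) were left out. Symbols came from GENCODE M21 (GRCm38) and gene name tables, which matched 52073 of 56748 identifiers; exon lengths, exon overlaps and promoters are also on GRCm38, so no file coordinates were used.

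Genes kept by filterByExpr (minimum count 10, minimum total 15) were tested over all 10 libraries with edgeR 4.0.16 (TMM, quasi-likelihood F test) and Benjamini-Hochberg adjustment over 15942 genes, in R 4.3.3; the script was tested on simulated data. Levels are TMM-scaled CPM. Count ratios, with 0.5 added, were compared by exact permutation tests over libraries (scipy 1.17.1). DESeq2 1.42.0, limma 3.58.1 and sva 3.50.0 gave alternatives, along with other scalings, filters, covariates and leaving out each library.

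Named were called members, KATP subunits, the 3 most abundant of each subfamily, expressed members whose groups did not overlap, the 3 on each side of the expression threshold and the 3 largest changes not called; results for some genes are not reported here, and others are said to be chosen after their values were seen. Kcnj2, Kcnj4, Kcnj5, Kcnmb1, Kcnn1 and Kcnn2 were also described for their place beside named relatives. The members, lists and ratios were chosen with earlier results of these data known. Floors cover counting error only. The acinar, delta, ductal, macrophage and Schwann marker sums are given with the other observations.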

Additional observations from a re-analysis of the deposited data

Results flagged for a closer look

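Within groups of 5 libraries, a library standing far from the other 4 (Dixon's gap test at the 95% level) was found in 3 of 58 groups checked, for 29 named members; chance flags about 1 in 20. Kcnb2 stood at 17.1 CPM in untreated 5, below the 21.9 to 22.9 CPM of the other untreated libraries. Kcng3 stood at 2.36 CPM in LPS 10, below the 4.88 to 5.36 CPM of the other LPS libraries. Kcnh2 stood at 211 CPM in untreated 5, above the 192 to 197 CPM of the other untreated libraries. None of the 3 genes was called.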

How the results depend on the processing

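No paired analysis was possible because the labels number the libraries 6 to 10 and 1 to 5, with no number in common. The surrogate variable rose with library number in both groups, from -0.445 in untreated 1 to 0.401 in untreated 5 and from -0.610 in LPS 6 to 0.453 in LPS 10. The labels do not say what this order stands for, and it was not used as a block. The number of members called was 4; it was 0 with the endothelial marker mean or with ENSMUSG00000119584 as covariate, and 2 (Kcnj12, which is 1 of the 4, and Kcnh1, which is not) with the alpha and pancreatic polypeptide mean, a setting chosen after seeing the data; leaving out 1 library gave 1 to 4. Limma-voom with sample quality weights called 3 and DESeq2 or 1 surrogate variable 5. Over all genes, 601 were called, against 941 in DESeq2, 994 with sample quality weights, 1253 with 1 surrogate variable, and 179, 167 and 390 with the covariates in the order above; the cause was not tested. The count of expressed members ranged between 37 and 50 over thresholds of 2 and 0.5 CPM.

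Signs that changed were all of uncalled members. With the endothelial mean the log2 fold change was 0.0076 for Kcnj11, 1.2512 for Abcc9, 0.0258 for Kcnh6, -0.0745 for Kcnq3 and 0.2947 for Kcnh5. With ENSMUSG00000119584 it was -0.0507 for Abcc8, -0.5985 for Kcnj8, 0.1548 for Abcc9, -0.8465 for Kcnq3 and 0.0561 for Kcnh7. With the alpha and pancreatic polypeptide mean it was -0.0291 for Abcc8, 0.0153 for Abcc9, -0.1345 for Kcnip1, 0.0963 for Kcnk16, 0.2835 for Kcnk3, 0.1892 for Kcnk13 and 0.6249 for Kcnc4. Upper-quartile scaling gave -0.0033 for Abcc8. Limma-voom gave -0.1224 for Kcnj8, 0.0479 for Abcc9 and 0.2544 for Kcnh5, and with quality weights -0.1311, 0.0693 and 0.0214, and 0.0019 for Kcnh6.

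Leaving out 1 library at a time, the log2 fold change ranged from -0.0271 to 0.0465 for Abcc8, -0.1890 to 0.5270 for Kcnj8, -0.3479 to 0.1506 for Abcc9, -0.0378 to 0.1850 for Kcnj6, -0.0796 to 0.0012 for Kcnh6, -0.0264 to 0.1170 for Kcnip1, -0.4216 to 0.0237 for Kcnk3, -0.3441 to 0.0056 for Kcnk13, -0.1903 to 0.2201 for Kcnq3, -0.4191 to 0.0813 for Kcnc4 and -0.2461 to 0.4478 for Kcnh5. The 3 count ratios kept their side of the threshold in each setting run. For Kcnj3 to Kcnj6, leaving out 1 library could not change this. Groups that do not overlap stay apart and give the smallest p possible, so those fits are no check of that ratio. The sign of all 3 ratios was kept too, but the Kcnk16 to Kcnk3 difference was near 0 without untreated 1 (0.0003) or LPS 10 (0.0083). Counts limit the genes near 1 CPM most.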

Other observations

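Kcnq1ot1, a long noncoding RNA antisense to Kcnq1, stood at 35.0 ± 11.0 CPM in LPS and 42.3 ± 9.3 CPM in untreated libraries (SD, n = 5). Its log2 fold change was -0.27 (edgeR adjusted p = 0.627). Kcnq1 itself stood at 1.39 ± 0.47 CPM in LPS and 1.76 ± 0.47 CPM in untreated libraries (SD, n = 5). The gene models span 93092 bases for Kcnq1ot1 and 4093 bases for Kcnq1, so these CPM do not compare the genes per length. Without a stated strand setting, reads of the overlapping stretch cannot be told apart. Of 52 tested members 17 shared exon bases with another gene, and Kcnj3 was the 1 among those called.

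Marker sums of other cells were 4969 to 9050 CPM in LPS and 6065 to 8192 CPM in untreated libraries for delta cells, 124 to 541 CPM in LPS and 211 to 398 CPM in untreated libraries for acinar cells, 511 to 655 CPM in LPS and 436 to 566 CPM in untreated libraries for ductal cells, 41.1 to 52.6 CPM in LPS and 31.1 to 45.3 CPM in untreated libraries for macrophages, and 11.2 to 19.3 CPM in LPS and 14.1 to 17.3 CPM in untreated libraries for Schwann cells. Of the 7 macrophage markers 3 were tested: Cd68 (log2 fold change 0.68) and Cd14 (0.93) rose, and C1qa, second in level, was at -0.35 without passing (edgeR adjusted p = 0.213). Csf1r, Lyz2, C1qb and Adgre1 had means of 0.331, 0.0748, 0.0250 and 0.00422 CPM and were not tested. Of the 5 ductal markers 4 were tested. Spp1 rose (0.97, edgeR adjusted p = 0.00404), while Krt19 (0.75), Krt7 (0.16) and Sox9 (0.01) did not pass. Krt7, at a mean of 448 CPM, made up most of the ductal sum, and Sox9 had a mean of 1.51 CPM.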
